A study of Arabidopsis lyrata with 12 samples.

Results

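In young leaves of Arabidopsis lyrata, 178 genes had well-covered mRNA but no domain of any profiled chromatin mark over their span. They were chosen from the 24268 genes of the mRNA table by 2 readouts. Their mean exon coverage was 10 or more, and 0 bp of their span lay in domains of H3K4me3, H3K27me3, H3K27me1 or 5mC (5-methylcytosine). Both readouts are used here to define the set, so the coverage and the lack of domains are given as descriptions. The plants were of accession MN47, grown in soil with 16 hours of light and 8 hours of dark at 22.5 °C. The set was compared with the 1673 genes without any domain at a coverage under 10, and with the 9214 genes at a coverage of 10 or more that had a domain.

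In plants, trimethylation of histone H3 at lysine 4 (H3K4me3) marks transcribed genes, mainly towards their start. Trimethylation at lysine 27 (H3K27me3) is laid down by Polycomb complexes on genes held silent. Monomethylation at lysine 27 (H3K27me1) and cytosine methylation are known from transposons and heterochromatin, although cytosine methylation also occurs within the bodies of some transcribed genes.

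The data held 1 list of enriched domains for each of the 4 marks and 1 mRNA library. There were 2 libraries per mark, and which of them a list rests on is not stated. Sequencing depth is unknown for every library, and no replicate value stood in the tables, so no test of a difference was possible and a missing domain means only that none was listed. Shares are given with exact (Clopper-Pearson) 95% intervals and medians with exact binomial 95% intervals. Both cover counting error over genes only. The mRNA table pairs no identifier with a gene name, and 0 of its 24268 identifiers stood in the RefSeq gene table of assembly v.1.0. Functions of the genes, and leaf marker genes, could thus not be given, and the genome build is not given in the sources used here.

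Genes without any domain made up 1.90% of the 9392 genes at a coverage of 10 or more, against 7.63% of all listed genes. Mean exon coverage is a value per base, and 38.7% of the list reached 10. Among the 1851 genes without any domain, 9.62% reached this coverage. The share of genes without any domain was 19.3% (386 of 1998) where the table listed a coverage of exactly 1, its lowest value, and 11.01% (522 of 4741) between 2 and 5. It was 4.29% (222 of 5174) between 5 and 10 and 2.07% (95 of 4586, interval 1.68 to 2.53%) between 10 and 20. From there on it varied little: it was 1.88% (58 of 3082) between 20 and 50, 1.24% (12 of 967) between 50 and 100, and 2.00% (8 of 401, interval 0.865 to 3.89%) between 100 and 200. From 200 to 500 it was 2.15% (5 of 233, interval 0.700 to 4.94%). At 500 or more there were 0 genes without any domain among 123, which allows a share of up to 2.95%. The intervals of all 6 classes from 10 upwards held the pooled 1.90%. Both readouts are averages over the cells of whole leaves, so a mark or an mRNA confined to few cells cannot be told apart from a low level in all.

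**Figure D1:**
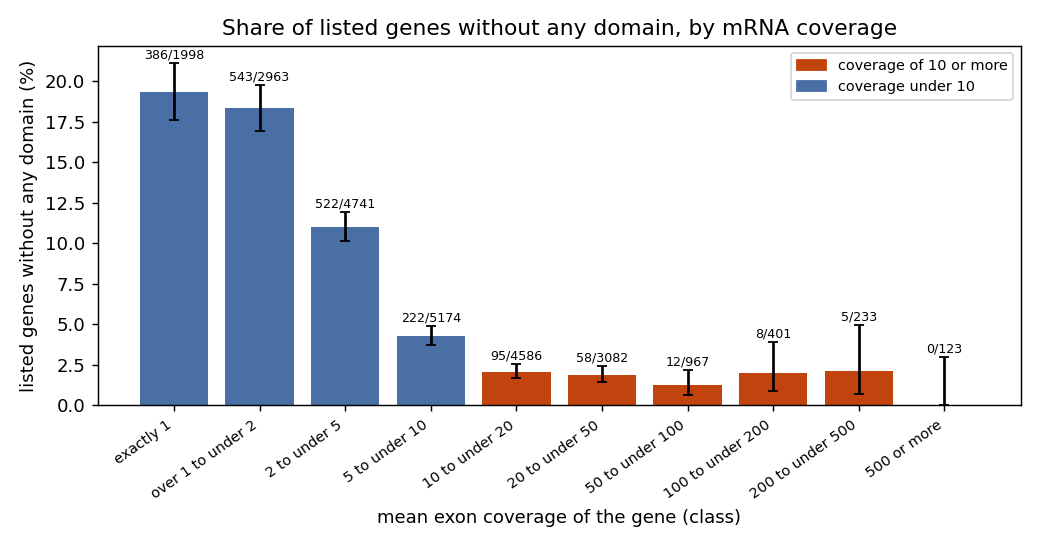
Share of listed genes without any domain of the 4 marks (y axis, %) in classes of mean exon coverage (x axis). Bars give the share, whiskers the exact 95% interval for counting error, and the numbers above them the genes without any domain over all genes of the class. The share is 19.3% at a coverage of exactly 1 and between 1.24 and 2.15% in the classes from 10 to 500.

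Among the 178 genes, coverage ran from 10.01 to 436 with a median of 19.0 (quartiles 12.9 and 30.8). The 9214 genes of the same coverage range that had a domain reached 27356, with a median of 20.4. There were 134 listed genes with a coverage above the highest of the 178, and all 134 had a domain, 129 of them H3K4me3. Of the 178 genes, 95 lay below a coverage of 20, 58 lay from 20 to 50 and 25 lay at 50 or more. The threshold cut through a continuous range: 24 genes without any domain had a coverage of 9.02 to 9.96, and 18 had a coverage of 10.01 to 10.8. On the other side of the domain rule, 28 genes at a coverage of 10 or more had fewer than 200 bp under domains, while 29 of the 178 had their nearest domain less than 200 bp away.

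The genes were short. Their median span was 1157 bp (interval 1035 to 1367 bp, quartiles 741 and 1858 bp), against 1385 bp (interval 1320 to 1447 bp) for genes without any domain at lower coverage. The intervals of these medians overlapped. Genes of similar coverage with a domain had a median span of 2227.5 bp (interval 2203 to 2257 bp), well outside the interval of the 178 genes. A span under 1 kb was found in 73 of the 178 (41.0%, interval 33.7 to 48.6%), in 33.4% of the genes without any domain at lower coverage (interval 31.2 to 35.7%), in 8.78% of the genes with a domain at this coverage, and in 11.3% of all listed genes. Below 500 bp the direction turned. Such spans were found in 10 of the 178 (5.62%, interval 2.73 to 10.1%), against 9.62% of the lower-coverage genes without any domain (interval 8.25 to 11.1%). These intervals overlapped. A span of 2 kb or more was found in 34 of the 178 (19.1%), against 28.9% of the genes without any domain at lower coverage and 57.9% of the genes with a domain at high coverage. A short span offers fewer bases in which a domain could fall, and how much of the lack of domains goes with span alone was not tested.

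In all 6 classes of span, the share of genes without any domain was lower at high than at low coverage, although only the 5 classes from 250 bp upwards had intervals that did not overlap. Among genes of 500 to 1000 bp, 63 of 825 (7.64%, interval 5.92 to 9.66%) had no domain at a coverage of 10 or more, against 398 of 1553 (25.6%, interval 23.5 to 27.9%) at lower coverage. Between 1 and 2 kb the shares were 2.26% (71 of 3138) at high and 14.2% (630 of 4427) at low coverage. Between 2 and 4 kb they were 0.745% (30 of 4026) at high and 6.54% (393 of 6013) at low coverage. At 4 kb or more, 4 of 1346 genes (0.297%) lacked a domain at high coverage and 91 of 2568 (3.54%) at low coverage. Below 250 bp there were 3 of 6 genes (interval 11.8 to 88.2%) at high coverage and 82 of 129 (interval 54.6 to 71.9%) at low coverage. Within the 178 genes, coverage did not go with span: the Spearman correlation across these genes, all from 1 library, was 0.01.

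**Figure D2:**
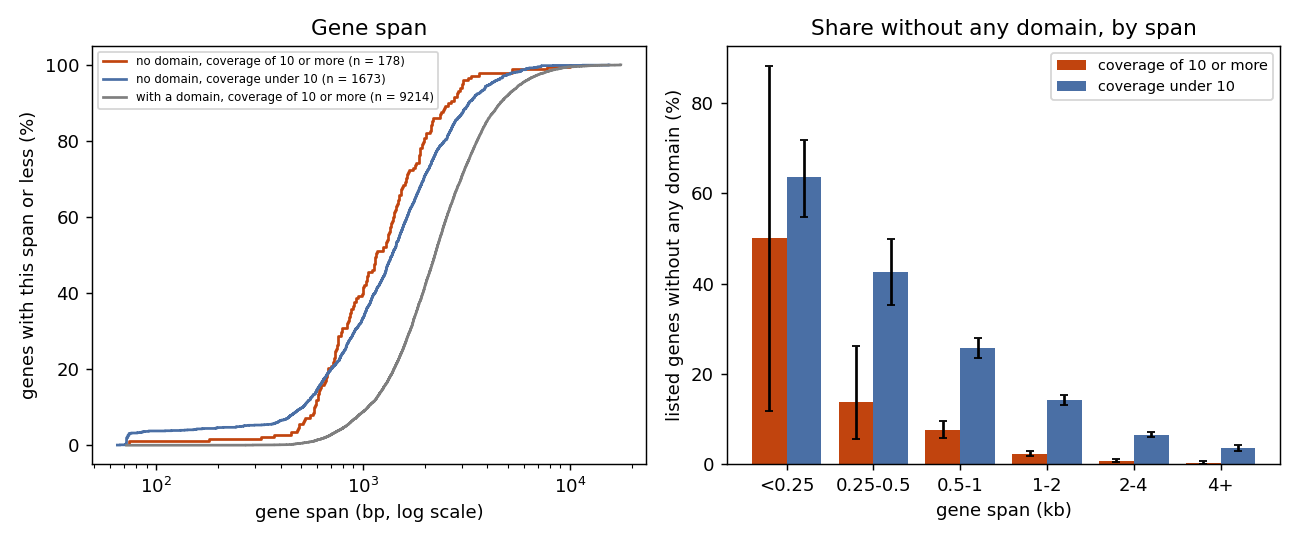
Left, the cumulative share of genes (y axis, %) by span (x axis, bp, log scale) for the 178 genes, for genes without any domain at a coverage under 10, and for genes with a domain at a coverage of 10 or more. Right, the share of listed genes without any domain (y axis, %) in classes of span (x axis, kb) at high and low coverage, with exact 95% intervals as whiskers. The medians are 1157, 1385 and 2227.5 bp, and the bar of high coverage is below that of low coverage in all 6 classes.

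H3K4me3 was the mark most often found next to these genes. It was the nearest domain alone for 97 of the 178 (54.5%), 5mC for 46 (25.8%), H3K27me3 for 17 (9.55%) and H3K27me1 for 9 (5.06%). In 4 genes 2 or more marks were equally near, and 5 genes lay on scaffolds that held no domain. Among genes without any domain at lower coverage, the nearest domain was H3K4me3 in 52.1%, 5mC in 24.1%, H3K27me3 in 14.3% and H3K27me1 in 4.90%, so the order of the marks was the same.

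The distance to H3K4me3 separated the 178 genes little from the genes at lower coverage. Its median was 1190 bp (interval 866 to 1545 bp, quartiles 436.75 and 3009.75 bp) for the 168 genes with such a domain on their scaffold. For the lower-coverage genes without any domain it was 1340 bp (interval 1250 to 1425 bp). An H3K4me3 domain lay within 150 bp of 14 of the 178 genes (7.87%, interval 4.37 to 12.8%), against 5.20% of the lower-coverage genes. Within 500 bp the shares were 26.97% (48 genes, interval 20.6 to 34.1%) and 20.8% (interval 18.9 to 22.8%), and within 2 kb they were 61.2% and 62.3%. At each of these distances the intervals of both groups overlapped. Only 3 of the 178 genes had H3K4me3 within 500 bp on both sides, against 28 of the 1673 lower-coverage genes. For 46 of the 48 genes with H3K4me3 within 500 bp (95.8%, interval 85.7 to 99.5%), the nearest such domain shared bases with another listed gene. This was near the 95.1% for the 348 lower-coverage genes with H3K4me3 within 500 bp and the 91.8% of all H3K4me3 domains. The median width of the nearest domains of the 48 genes was 900 bp, against 750 bp over all 21676 H3K4me3 domains.

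The other marks were farther away. The median distance to 5mC was 3392.5 bp (interval 2829 to 4299 bp), against 3362 bp for the lower-coverage genes. For H3K27me3 it was 6320 bp (interval 5139 to 7594 bp), against 5276 bp. For H3K27me1 it was 7974 bp (interval 6748 to 9704 bp), against 8221 bp. Each comparison value lay inside the interval of the 178 genes. H3K27me3, the Polycomb mark, lay within 1 kb of 15 of the 178 genes (8.43%, interval 4.79 to 13.5%). It did so for 233 of the 1673 lower-coverage genes (13.9%, interval 12.3 to 15.7%). The direction of this gap changed with the distance. Within 150 bp the shares were 2.81% of the set and 1.08% of the lower-coverage genes, and within 500 bp 6.18% and 6.34%. Within 2 kb they were 16.9% and 23.2%, and within 10000 bp 65.7% and 67.2%. At each of these distances the intervals of both groups overlapped. A domain of any mark lay within 500 bp of 76 genes (42.7%), within 1 kb of 109 (61.2%) and within 2 kb of 145 (81.5%). For the lower-coverage genes these shares were similar, at 37.2, 61.7 and 83.6%.

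**Figure D3:**
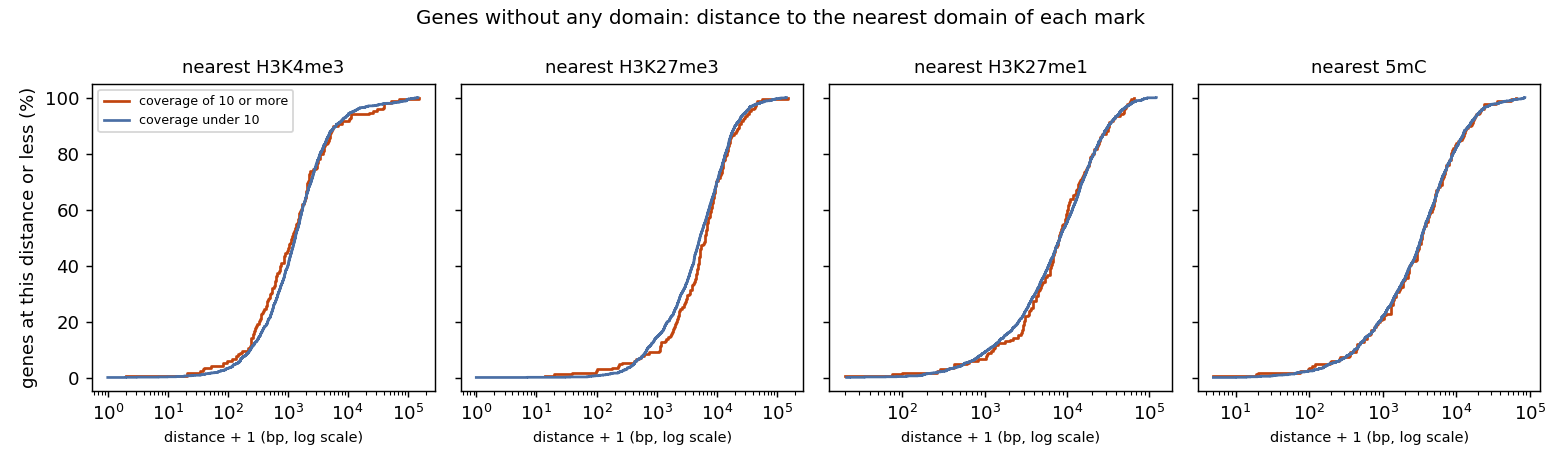
Cumulative share of genes without any domain (y axis, %) by distance to the nearest domain of H3K4me3, H3K27me3, H3K27me1 and 5mC (x axes, bp plus 1, log scale), for a coverage of 10 or more and for a coverage under 10. Genes on scaffolds without the mark are left out. The curves of both groups run close together in all 4 panels, with medians of 1190 and 1340 bp for H3K4me3.

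The highest values of the set, coverages of 436, 402 and 366, lay in long stretches free of domains. A domain-free interval of 50 kb or more held 13 of the 178 genes (7.30%, interval 3.95 to 12.2%), against 52 of the 1673 lower-coverage genes (3.11%, interval 2.33 to 4.06%), so the intervals just overlapped. The limit of 50 kb was chosen after the values were seen. The median coverage of these 13 genes was 90.1, against 18.8 for the other 165. Of the 13 genes with a coverage of 100 or more, 6 lay in such intervals and 7 elsewhere, where the nearest domain was 102 to 1290 bp away. Of the 13 genes in the long intervals, 11 had their nearest domain more than 9000 bp away, and the other two lay 191 and 197 bp from an interval's edge. All 160 genes outside them with a domain on their scaffold had one within 5679 bp. Coverage and the distance to the nearest domain had a Spearman correlation of 0.05 across the 173 genes with a distance. Coverage and the distance to H3K4me3 had one of 0.16 across 168 genes. The median distance to H3K4me3 was 1192.5 bp for the 95 genes at a coverage of 10 to 20, 870.0 bp for the 58 from 20 to 50, and 3120.0 bp for the 25 at 50 or more.

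**Figure D4:**
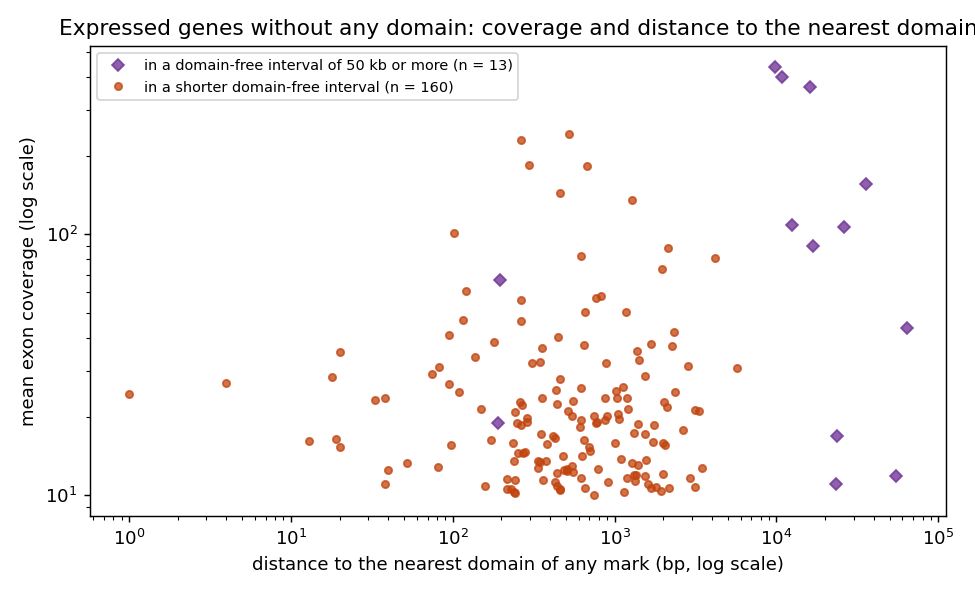
Mean exon coverage (y axis, log scale) against the distance to the nearest domain of any mark (x axis, bp, log scale) for the 173 expressed genes without any domain that have a domain on their scaffold. Diamonds are the 13 genes in domain-free intervals of 50 kb or more and circles the 160 others. Beyond 9000 bp there are only diamonds, 11 in all, and the 3 highest values of the plot are among them.

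There were 6 domain-free intervals of 50 kb or more with at least 1 listed gene, and 5 of them held a gene of the set. The longest with several was 176.25 kb of scaffold 2 (8746051 to 8922300). It held 29 listed genes, of which 5 had a coverage of 10 or more, from 11.04 to 156, and 24 had a lower one, with a median of 2.67. Its genes were not spread evenly: 28 lay left of a stretch of 86.6 kb (8834520 to 8921111) without a listed gene, and 1 lay right of it. A second interval of scaffold 2, of 85.2 kb (9127801 to 9213000), held 13 listed genes. Here 2 genes had a coverage of 436 and 106, and the other 11 had 1 to 7.55. The interval of 55.95 kb on scaffold 9 (1614301 to 1670250) held 9 listed genes, of which 4 had a coverage of 402, 366, 108 and 90.1 and 5 had 1 to 5.71. In each of these 3 intervals, high and low coverage thus stood side by side in neighbouring genes, with no gene of the interval under a domain. Over all 6 intervals, 13 of 65 genes (20.0%, interval 11.1 to 31.8%) had a coverage of 10 or more. Among all genes without any domain, these 65 included, it was 9.62%. The share ran from 0% (2 genes on scaffold 1) to 100% (1 gene on scaffold 8), and was 17.2 and 15.4% on scaffold 2. Coverage also defines the set, the limit of 50 kb was chosen after the values were seen, and neighbouring genes are not independent. The pooled share is thus a description only.

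**Figure D5:**
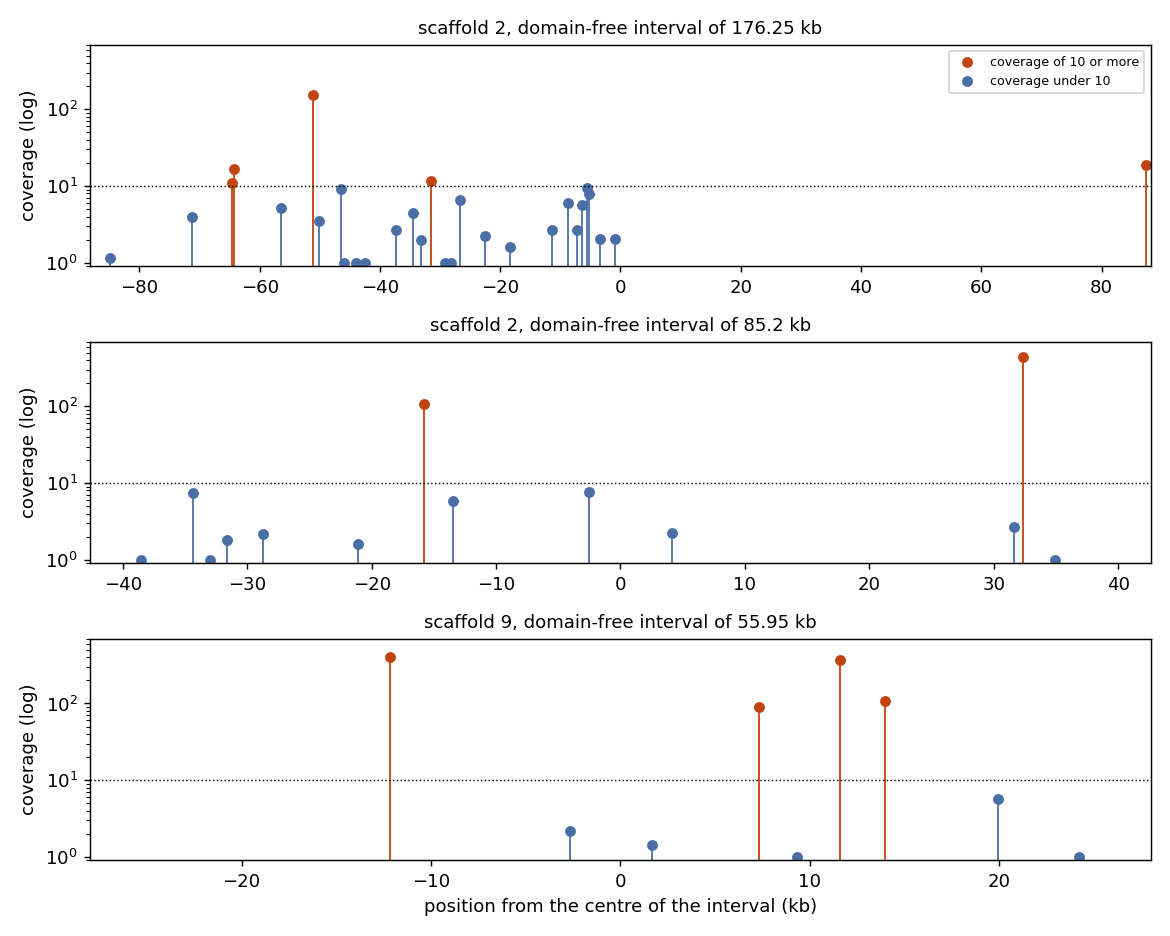
Mean exon coverage (y axes, log scale) of every listed gene in the 3 domain-free intervals of 50 kb or more that held at least 2 genes with a coverage of 10 or more, by position of the gene's midpoint from the interval's centre (x axes, kb). The dotted line marks a coverage of 10. The 5, 2 and 4 genes above it stand among 24, 11 and 5 genes below it.

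Very short spans were frequent in these intervals. Of the 77 listed genes with a span of 65 to 95 bp, 65 had no domain and 20 (26.0%) lay in the 6 intervals, 12 of them in the first interval of scaffold 2. Among the 178 genes there were 2 such spans (1.12%), against 63 among the 1673 lower-coverage genes without any domain (3.77%). The exact 95% intervals of these shares overlapped, and 0.317% of all listed genes had such a span. Both genes of the set had a span of 74 bp on scaffold 2 (8769562 to 8769635 and 8769829 to 8769902), with a coverage of 11.04 and 16.8. They lay 193 bp apart and more than 23 kb from any domain, at 23511 and 23778 bp.

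The highest coverage of the set was that of AL2G20670 on scaffold 2 (9202293 to 9203217), with 436. This gene spanned 925 bp in the interval of 85.2 kb, 9783 bp from a 5mC domain and 11283 bp from H3K4me3. Next came AL9U11700 on scaffold 9 (1625077 to 1635101), with 402, which was also the longest gene of the set at 10025 bp. Its nearest domain was H3K4me3, at 10776 bp. Both genes stood far from every domain, unlike most of the set. Outside the long intervals, the highest values were 243 on scaffold 7 (2917039 to 2918330), with H3K4me3 at 520 bp, and 229.9 on scaffold 2 (283464 to 284137), with H3K27me3 at 263 bp.

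Farthest from any domain was AL3G43290 on scaffold 3 (15414357 to 15415505), with a coverage of 43.7. The nearest domain, 5mC, lay 64556 bp away and the nearest H3K4me3 domain 156656 bp. It stood in the domain-free interval of 1987.8 kb on scaffold 3 (15349801 to 17337600), where the other 10 listed genes had a coverage of 1 to 3.07. AL2G20070 on scaffold 2 (8801130 to 8804159) followed, 55079 bp from the nearest domain and with a coverage of 11.8. The remaining long interval with a gene of the set, 105.75 kb on scaffold 8 (1836451 to 1942200), held a single gene, at its left edge (1836648 to 1838812), with a coverage of 66.8.

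Overlap with another listed gene was found for 18 of the 178 genes (10.1%, interval 6.10 to 15.5%). It was found for 113 of the 1673 lower-coverage genes without any domain (6.75%, interval 5.60 to 8.06%), for 1.58% of the genes with a domain at a coverage of 10 or more, and for 2.35% of all listed genes. The first 2 intervals overlapped, and both lay above the others. In 12 of the 18 genes a partner had a domain, H3K4me3 in 11 of them. Among the 113 lower-coverage genes, a partner had a domain in 70 and H3K4me3 in 64. Of all listed genes, 79.6% had H3K4me3, so such partners were not particular to the set. Of the 18 genes, 5 (27.8%, interval 9.69 to 53.5%) lay wholly inside a partner, against 67 of the 113 lower-coverage genes (59.3%, interval 49.6 to 68.4%), and these intervals overlapped. The median number of shared bases was 600.5 bp, against 142 bp. In 2 of the pairs both genes belonged to the set. With each pair counted once, the coverage of both genes lay within 1.5-fold in 12 of 17 pairs (70.6%, interval 44.04 to 89.7%), with a median ratio of 1.26. For the lower-coverage genes it did so in 37 of 97 pairs (38.1%, interval 28.5 to 48.6%), with a median ratio of 1.84. These intervals overlapped. Shared bases can enter the coverage of both genes, and the set shared more of them, so these shares are descriptions only. For the 156 genes of the set that shared no base with another gene and had a listed neighbour, the nearest gene lay within 1.5-fold in 33 cases (21.2%, interval 15.0 to 28.4%), with a median ratio of 2.79. For 1534 such lower-coverage genes the share was 18.1% (interval 16.2 to 20.1%), with a median ratio of 3.79. Without strand, reads in shared bases cannot be told apart, so the coverage of these 18 genes is uncertain where bases are shared. The part shared with a partner ran from 0.515% of the span, in a gene of coverage 156, to 100%. Whether the coverage came from the partner was not tested.

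A pair of overlapping genes on scaffold 2 belonged to the set with both partners (18571537 to 18574391 and 18573047 to 18574391), with a coverage of 12.5 and 12.03. The second lay wholly inside the first. On scaffold 1 (17078286 to 17079698) a gene of coverage 13.2 shared 1396 of its 1413 bp with a gene of coverage 13.6 that had 2251 bp under H3K4me3. On scaffold 6 (3227917 to 3228096) a gene of 180 bp and coverage 10.6 lay inside a gene of 8725 bp and coverage 8.03 with 900 bp under H3K4me3. In the last 2 cases the larger gene carried H3K4me3 in a stretch that the smaller one did not reach.

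The genes stood close to others also without overlap. For 172 of them, the nearest listed gene that shared no base lay at a median of 117.5 bp. This median was 204 bp for the lower-coverage genes without any domain, 345 bp for genes with a domain at this coverage and 394 bp for all listed genes. Counting an overlap as 0 bp, the median distance of the set to the nearest listed gene was 90 bp (interval 63 to 144 bp), against 139 bp (interval 119 to 164 bp) for the lower-coverage genes without any domain, 325 bp for genes with a domain at this coverage, and 361 bp for all listed genes. The first 2 intervals overlapped. Among 172 genes of the set, the nearest listed gene that shared no base with them had H3K4me3 in 71.5% (interval 64.1 to 78.1%), against 77.8% for the lower-coverage genes and 80.03% for all listed genes. It had no domain itself in 36 cases (20.9%, interval 15.1 to 27.8%), against 14.7% for the lower-coverage genes and 8.63% for all. The neighbour's coverage was 10 or more in 78 cases (45.3%, interval 37.8 to 53.1%), against 37.8% for the lower-coverage genes and 39.4% for all, both inside this interval.

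Scaffolds outside the 8 main ones held 20 of the 178 genes (11.2%, interval 7.00 to 16.8%). They held 6.16% of the lower-coverage genes without any domain (interval 5.05 to 7.42%), 1.54% of the genes with a domain at this coverage and 2.69% of all listed genes. The first 2 intervals overlapped slightly, and both lay above the other shares. Of the 162 genes at a coverage of 10 or more on these scaffolds, 12.3% (interval 7.71 to 18.4%) had no domain. On the main scaffolds this share ran from 1.14% on scaffold 3 to 3.22% (26 of 807, interval 2.12 to 4.69%) on scaffold 2, which held 7 of the genes in the 2 long intervals described above. The 20 genes lay on 16 scaffolds. Scaffold 9, of 1.91 Mb, held 4 of them, and the extent of the 16 had a median of 5196 bp. On 4 scaffolds with 5 of the genes, of 1462 to 3916 bp, there was no domain at all. Of the 20 genes, 16 lay within 2 kb of an end of their scaffold as far as the tables reach. This count says little about the genes. On the scaffolds of 1462 to 3916 bp any position meets it, and the outermost gene or domain itself set the end. No share for other genes on these scaffolds was computed. The median coverage of the 20 genes was 24.4, against 18.7 for the 158 genes on the main scaffolds.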

How the data were processed

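The authors deposited 1 list of domains per mark, each domain with a whole-number score whose meaning is not stated, and a mean exon coverage per gene for the mRNA library. The submitters' processing notes name Bowtie and SICER without a version. The genome build and the calling settings are not stated in any source used here, nor is it stated whether replicates were pooled. Per the labels, 20 ng of DNA or, for mRNA, 1 µg of total RNA went into each library. Domain starts count from 0 in the files, with inclusive ends, and coordinates are printed counting from 1. Domain edges fell on grids of 150 bp (H3K4me3, 5mC) or 300 bp (H3K27me3, H3K27me1).

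Span is the distance from start to end of a listed gene, both included. Distance counts the bases between a gene and a domain on the same scaffold, and overlap needs at least 1 shared base. Domain-free intervals lie between domains of any mark, up to the highest coordinate in any file. The interval and overlap steps, run in Python 3.11.15 with pandas 2.3.3 and SciPy 1.17.1, were tested on simulated data. The 2 genes of highest coverage and the 2 farthest from a domain are named. Other genes are given by position and were chosen after their values were seen. The set and all comparisons were chosen with earlier results of these data known. Input libraries were not used here. Alternatives covered coverage thresholds of 5 and 20, other rules for lacking a domain, the top 50% of domains by score, and subsets of genes.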

Additional observations from a re-analysis of the deposited data

How the results depend on the processing

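No paired analysis was possible because the tables hold no value per replicate. For the same reason no replicate could be left out. A coverage threshold of 5 gave 400 genes, one of 20 gave 83, and excluding genes with a domain within 500 bp left 102, whose median distance to H3K4me3 was 1974 bp, against 1764 bp at lower coverage. With the top 50% of each domain list by score, whose domains were wider (a median of 900 bp for H3K4me3, against 750 bp for the whole list), the set grew to 2247 genes and its features became like those of other genes: a median span of 1985 bp, 3016 bp to H3K4me3, 2.18% overlapping another gene and 3.47% on small scaffolds, both now below the lower-coverage genes, at 3.48 and 4.17%. The share with a span under 1 kb was then 15.4%, below the 18.2% of lower-coverage genes, and at a threshold of 5 it was 34%, against 34.2%. The share overlapping another gene was 7.23% at a threshold of 20, against 7.07% at lower coverage. Without the intervals of 50 kb or more, which was chosen after seeing the data, 165 genes remained, with a median distance to H3K4me3 of 1026 bp. Of the 42 values of the number of genes, span, distance to H3K4me3, overlap and small scaffolds recomputed under alternatives, 33 stayed within the interval of the main value (within 1.5-fold for numbers of genes). These 33 include an alternative that only left genes listed at exactly 1 out of the comparison group. The values of the set could not differ there. Depth is unknown, so a domain too weak to be listed cannot be told from none.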

Other observations

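The nearest listed gene sharing no base with a gene of the set belonged to the set itself in 10 of 172 cases (5.81%, interval 2.82 to 10.4%), against 1.76% for the lower-coverage genes without any domain (interval 1.18 to 2.52%) and 0.863% for all listed genes. Genes that are each nearest to the other count from both sides here, so the cases are not independent. There were 9 runs of neighbours, with 19 genes in all, and the longest had 3 genes on scaffold 7 (22775057 to 22779070), with a coverage of 11.5 to 182.6. The runs on scaffold 2 (8769562 to 8769902) and scaffold 9 (1653527 to 1657741) lay in the long domain-free intervals. Of 162 domain-free intervals that held a gene of the set, 132 held no other listed gene. Of the 1462 domain-free intervals that held lower-coverage genes only, 1356 held a single gene. Lone genes were thus common in both kinds of interval and not particular to the set. Intervals with genes of both groups count only with the set, so the 2 counts are not alike in kind. Identifiers run in steps of 10, and both neighbouring identifiers were also listed for 74.2% of the 178 genes (interval 67.1 to 80.4%), against 66.2% of the lower-coverage genes without any domain (interval 63.9 to 68.5%) and 62.4% of all listed genes. In 1 of the 24268 genes, the scaffold in the identifier, 1105, was not the one in the table, 1089. This gene (1 to 1125) belonged to the set, with a coverage of 27.03, and shared 1045 bp with a second gene of the set (81 to 1462), with a coverage of 26.03.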
